A study of Drosophila melanogaster with 4 samples.

Results

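The 8 Hox genes of Drosophila lie in 2 clusters on chromosome arm 3R, and RPD3 binding across both clusters was described here from lists of enriched regions. The Antennapedia complex was taken as 3R from 2480000 to 2830000 (350 kb), which the selection rule assigns to lab, pb, Dfd, Scr and Antp. The bithorax complex was taken as 3R from 12480000 to 12810000 (330 kb), assigned to Ubx, abd-A and Abd-B. Positions follow FlyBase release 5 and start at 1. Every enriched region that overlapped a window by at least 1 bp was a member: 18 of the 7041 regions of ChIP replicate 1, 25 of the 7654 regions of ChIP replicate 2, and 122 of the 19364 regions of 1 further list that belongs to the series as a whole, called the combined list here. The whole of 3R held 1684, 1893 and 4733 regions in these lists. Members are called Hox regions below only for their position in a window, and other genes lie among the Hox genes. The windows were set by position, not by binding values, though with earlier results of these data known.

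The samples came from the wild-type strain Oregon-R, as whole embryos at an age of 14 to 16 h, with 2 RPD3 ChIP libraries made with the antibody Q3451 and 2 input libraries, 1 for each ChIP library. RPD3 is a histone deacetylase, the fly orthologue of mammalian HDAC1 and HDAC2. The lists give the ends of each region and 1 score, read as the log2 of ChIP over input. Neither the unknown sequencing depth nor read-counting error could be worked out from them. With whole embryos, cells that express a Hox gene and cells that keep it silent were measured together.

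Hox genes encode homeodomain transcription factors that give body segments their identity, and their order on the chromosome follows the order of the segments they act in. Each is active in a limited stretch of the body and is kept silent elsewhere by Polycomb group proteins, while trithorax group proteins keep it active. RPD3 removes acetyl groups from histones as part of several co-repressor complexes, and it has also been isolated together with the Polycomb group proteins ESC and E(Z).

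The order of genes was read from the RefSeq gene table of release 6, in which all 8 Hox symbols were found on 3R. That release differs from the one of the region lists, so the table was used for names and neighbours only, and no region below is assigned to a gene. From the low end upwards, the Antennapedia complex begins with lab, which acts in the intercalary head segment and the midgut. It is followed by 8 cuticle protein genes, Edg84A and the Ccp84A genes, and then by pb, which shapes the adult mouthparts. Next come zen2, zen and bcd, which derive from Hox genes but act in the early embryo, and Ama, which encodes an immunoglobulin-domain protein. Dfd, for the mandibular and maxillary segments, and Scr, for the labial and first thoracic segments, follow. The pair-rule gene ftz and then Antp, for the thorax, stand at the high end. The table lists 43 genes from lab to Antp, 19 of them protein-coding. In the bithorax complex the order is Ubx, for the posterior thorax and first abdominal segment, then abd-A, for the anterior abdomen, then Abd-B, for the posterior abdomen and genital segments. The table lists 16 genes from Ubx to Abd-B, of which 6 are protein-coding and 7 are long non-coding RNAs, among them bxd, iab4 and iab8.

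Both complexes had few RPD3 regions in the replicate lists. The Antennapedia complex had 13 regions in replicate 1 and 14 in replicate 2, a mean of 13.5 ± 0.707 (SD, n = 2). The bithorax complex had 5 in replicate 1 and 11 in replicate 2, a mean of 8 ± 4.24 (SD, n = 2), so that its replicates differed more than those of the Antennapedia complex. Per 100 kb this was 2.65 regions over both complexes and 6.12 over the rest of 3R in replicate 1. In replicate 2 it was 3.68 over both complexes and 6.86 over the rest of 3R. In each replicate the density over the complexes was thus below that of the rest of the arm. Nothing in the labels tells whether separate collections of embryos were used, so the spread between replicates may be technical.

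Regions covered 6.35% of the Antennapedia complex in replicate 1 and 6.73% in replicate 2 (mean 6.54% ± 0.274, SD, n = 2). They covered 2.83% of the bithorax complex in replicate 1 and 5.48% in replicate 2 (mean 4.16% ± 1.88). On the rest of 3R they covered 14.0% and 16.3% (mean 15.2% ± 1.63). The covered share was lower in both complexes than on the rest of the arm in each replicate, by more than the SD between replicates. It was also lower in the bithorax than in the Antennapedia complex in each replicate, but the replicates of the bithorax complex were far apart. This order also depended on where the windows were taken to end. No test was run on 2 replicates, and these differences carry no p.

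To place these values along the arm, 1000 windows of the same length as each complex were drawn on 3R, and the same measures were taken in each. The windows overlap one another and serve as a description of the arm, without a p. The Antennapedia complex held 13 regions in replicate 1 and 14 in replicate 2, which was 0.65 and 0.667 times the window medians of 20 and 21. In replicate 1, 187 of the 1000 windows had as few regions as the Antennapedia complex or fewer, and in replicate 2 it was 128. The covered share of this complex was 0.52 times the window median of 12.2% in replicate 1 and 0.476 times that of 14.2% in replicate 2. It was matched or undercut by 73 windows in replicate 1 and by 52 in replicate 2. The Antennapedia complex therefore lay in the sparse part of the arm's range, and other stretches of 3R were as sparse.

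In the windows as defined, the bithorax complex lay further down in the replicate lists. It held 0.263 times the window median of 19 regions in replicate 1 and 0.524 times that of 21 in replicate 2. In replicate 1, 7 of 1000 windows had 5 regions or fewer, and in replicate 2, 92 windows had 11 or fewer. Its covered share was 0.222 times the window median in replicate 1, with 4 windows at or below it, and 0.369 times in replicate 2, with 41 at or below it. The position was thus lower in replicate 1 than in replicate 2. The value also depended on where the complex was taken to end. With 20 kb added on each side the mean number of regions became 13.5 and the mean covered share 7.18%, against 8 regions and 4.16% in the window as defined. The Antennapedia complex widened in the same way had a mean of 16 regions and a covered share of 7.06%. By covered share the bithorax complex was then no longer the lower. Relative to the window medians the shares were close, 0.51 for the bithorax complex and 0.539 for the Antennapedia complex.

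**Figure D1:**
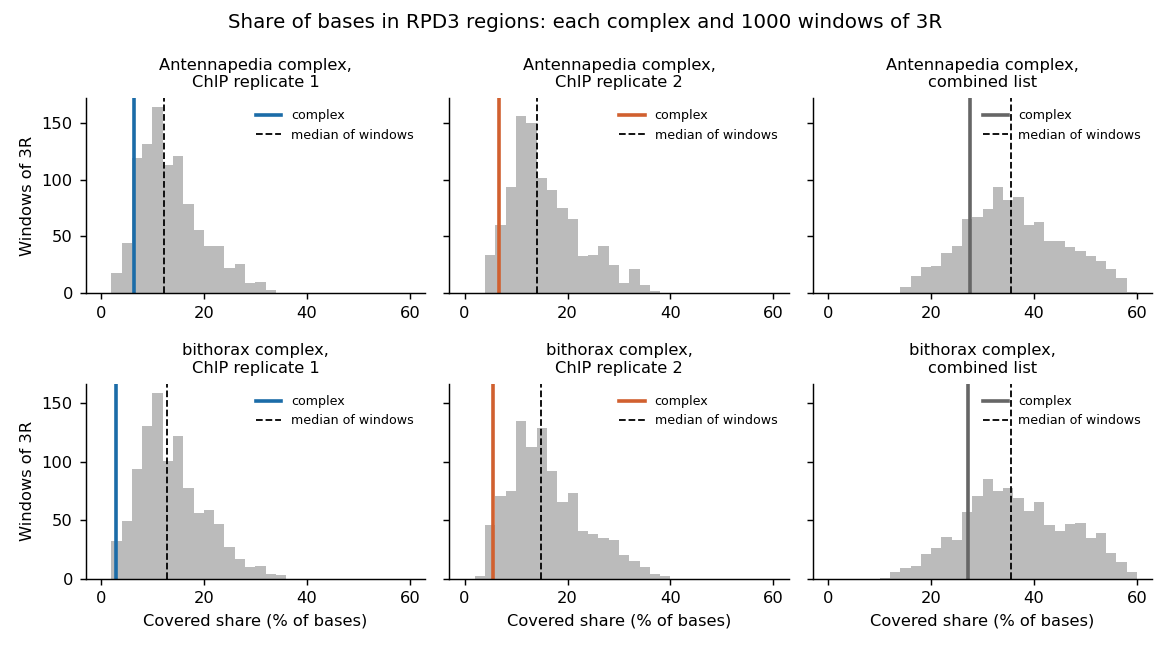
Histograms of the share of bases inside RPD3 regions (x axis, %) over 1000 windows of 3R of equal length to the Antennapedia complex (upper row) and the bithorax complex (lower row), for each list. The coloured line is the complex and the dashed line the median of the windows. The complexes stand at 6.35% and 2.83% in replicate 1, 6.73% and 5.48% in replicate 2, and 27.5% and 27.2% in the combined list.

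The combined list gave another picture of the number of regions. It held 63 regions in the Antennapedia complex and 59 in the bithorax complex, against window medians of 62 and 59, so neither complex was sparse in this list. The covered share was still lower, at 27.5% of the Antennapedia complex and 27.2% of the bithorax complex, against 36.7% of the rest of 3R. The windows had medians of 35.5% and 35.5%, with 185 windows at or below the Antennapedia complex and 169 at or below the bithorax complex. The combined regions of the complexes were thus as numerous as elsewhere on the arm but narrower.

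Narrow regions were common to all 3 lists. Median widths in the Antennapedia complex were 1381 bp in replicate 1, 1557.5 bp in replicate 2 and 1403 bp in the combined list. The medians in the bithorax complex were 1469 bp, 1625 bp and 1386 bp. On the rest of 3R they were 1902.5 bp, 1925 bp and 1608 bp. The mean difference between complex and rest of 3R over the replicates was -444.5 bp ± 109 for the Antennapedia complex and -366.75 bp ± 94.4 for the bithorax complex (SD, n = 2 each). The narrowest replicate region was 1315 bp wide in the complexes and 1301 bp on the rest of 3R, so many Hox regions were close to the smallest size that was listed. The widest in the replicate lists were 4000 bp in the Antennapedia complex and 3492 bp in the bithorax complex, both in replicate 1, whereas single regions elsewhere on 3R reached 11435 bp in replicate 1 and 12471 bp in replicate 2.

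No strong RPD3 region was found in either window as defined in the replicate lists. The highest score was 0.89 in replicate 1 and 0.90 in replicate 2, both in the Antennapedia complex. In the bithorax complex the highest were 0.82 and 0.82. Of the Hox regions, 0 of 18 in replicate 1 and 0 of 25 in replicate 2 reached the upper 25% of scores on 3R, which began at 0.90 in both lists. These counts of 0 allow shares of up to 16.7% and 12% (3 regions of the total). Of the regions on the rest of 3R, 25.3% in replicate 1 and 25.4% in replicate 2 were in that upper part, and 10.1% and 10.2% were in the upper 10%. The best Hox region stood at the 72.8 percentile of 3R scores in replicate 1 and at the 74.4 percentile in replicate 2. For the bithorax complex the count in replicate 1 depended on where the window ends. A replicate 1 region with a score of 0.98, at the 84.9 percentile, lay outside it, under a combined region that reaches 617 bp inside. The replicate 2 region there scored 0.76. The maxima of the Antennapedia complex compare with window medians of 1.21 in replicate 1 and 1.24 in replicate 2, and 12 and 30 of 1000 windows had a maximum at or below them. The maxima of the bithorax complex compare with window medians of 1.22 and 1.25, and 5 and 2 windows were at or below them. In replicate 1 the maximum was lower in 1 window, and in replicate 2 it was lower in 0 windows. Some windows overlap the complex itself and can share its regions. Both complexes also had few regions from which a maximum could come, and the part of that in these values was not tested.

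Median scores differed less than maxima. In replicate 1 the median was 0.77 in the Antennapedia complex, 0.72 in the bithorax complex and 0.78 on the rest of 3R. In replicate 2 the medians were 0.67, 0.66 and 0.77. The complex minus the rest of 3R averaged -0.05 ± 0.06 for the Antennapedia complex and -0.09 ± 0.03 for the bithorax complex (SD, n = 2 each). The first of these was within the spread between replicates and the second was beyond it. In replicate 2, 10 of the 25 Hox regions (40%) were in the lowest 25% of 3R scores, and in replicate 1, 5 of 18 (27.8%).

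Score moved with width on this arm. On the rest of 3R, regions narrower than 2000 bp had a median score of 0.71 in replicate 1 and 0.67 in replicate 2, and wider ones 0.90 in both. Of the Hox regions, 83.3% in replicate 1 and 88% in replicate 2 were narrower than 2000 bp, compared with 54.3% and 53.8% of regions on the rest of 3R. Among regions narrower than 2000 bp, the median score was 0.72 in the complexes and 0.71 on the rest of 3R in replicate 1, and 0.65 and 0.67 in replicate 2. Of these narrow regions, 0 of 15 in the complexes in replicate 1 and 0 of 22 in replicate 2 were in the upper 25% of scores (up to 20% and 13.6% allowed), against 6.19% and 4.98% on the rest of 3R. Within this width class the medians were therefore close. The complex minus the rest of 3R averaged 0.003 for the Antennapedia complex and -0.025 for the bithorax complex over the replicates. In the combined list it was -0.021 and 0.002 in this class, against -0.044 and -0.024 at all widths. The Antennapedia replicate mean and the bithorax combined value thus changed sign. The complexes had 3 regions of at least 2000 bp in each replicate, and 0 of them were in the upper 25%, against 48.0% and 49.1% of such regions on the rest of 3R. With only 3 regions a count of 0 sets no limit on the share, so the wider regions could not be compared.

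In the combined list the median score was 0.47 in the Antennapedia complex, 0.49 in the bithorax complex and 0.51 on the rest of 3R. In this list 11 of 122 Hox regions (9.02%) were in the upper 25% of 3R scores, where 25.4% of the regions on the rest of 3R lay. The upper 10% held 1 Hox region, set against 10.3% of the regions on the rest of 3R. The 1 region was on 3R from 12558163 to 12559580 in the bithorax complex, with a score of 0.78, and it overlapped no region of either replicate. The highest score in the Antennapedia complex in this list was 0.69, from 2502677 to 2504974.

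**Figure D2:**
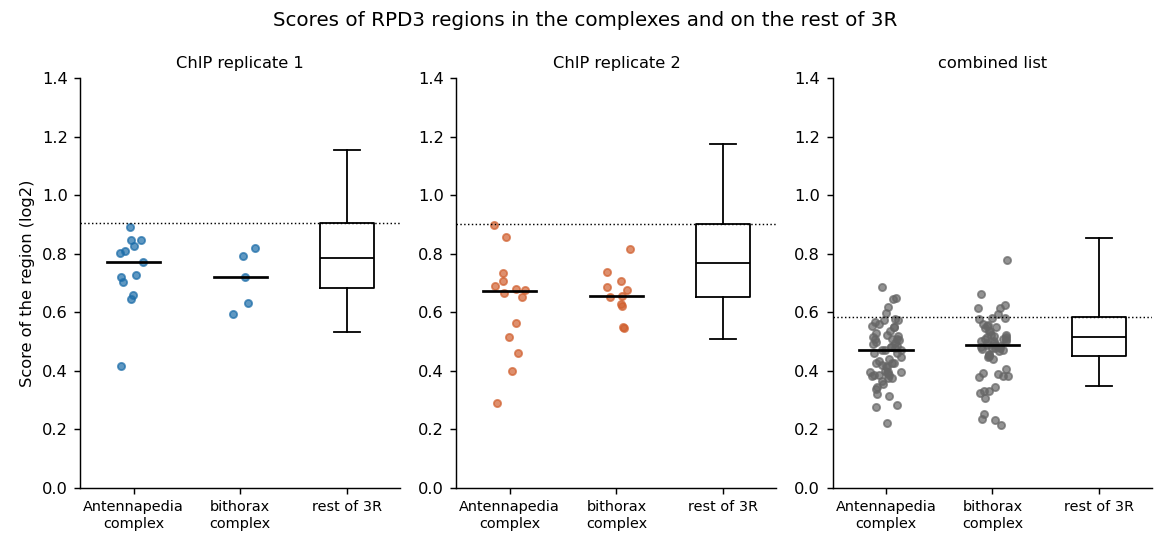
Scores of single regions (y axis, log2) in the Antennapedia complex and the bithorax complex (points, with a bar at the median) and on the rest of 3R (box from the 25th to the 75th percentile with the median, whiskers to the 5th and 95th), for each list. The dotted line marks the start of the upper 25% of 3R scores, which no point of either replicate list reaches and 11 points of the combined list do.

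In each complex, fewer regions were shared between the replicates than on the rest of 3R. In the Antennapedia complex 6 of 13 regions of replicate 1 met a region of replicate 2, sharing 1 bp or more (46.2%, 95% exact binomial interval 19.2% to 74.9%), and 6 of 14 regions of replicate 2 met one of replicate 1 (42.9%, 17.7% to 71.1%). For the bithorax complex it was 2 of 5 (40%, 5.27% to 85.3%) and 3 of 11 (27.3%, 6.02% to 61.0%). On the rest of 3R a partner was found for 74.9% of regions in replicate 1 and 64.9% in replicate 2. The intervals cover counting error over regions only and treat regions as independent. They are wide because the complexes hold few regions. The intervals of the Antennapedia complex in replicate 2 and of the bithorax complex in replicate 1 include the values of the rest of 3R. That of the Antennapedia complex in replicate 1 ends just under it, so these counts separate the complexes from the arm only weakly. With 20 kb added on each side of the bithorax complex, 7 of 10 regions in replicate 1 (70%) and 8 of 17 in replicate 2 (47.1%) had a partner.

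Width moved with the overlap between replicates as well. Among regions narrower than 2000 bp, 5 of 15 Hox regions in replicate 1 (33.3%) and 7 of 22 in replicate 2 (31.8%) had a partner, where the background on the rest of 3R was 57.8% and 42.0%. The number of regions was lower in the complexes too, and its part in these shares was not tested. With only 15 and 22 narrow Hox regions the shares are uncertain, and no interval was computed for them. These counts therefore do not show a lower overlap at equal width. Bases covered in both replicates made up 3.03% of the Antennapedia complex, 1.49% of the bithorax complex and 10.4% of the rest of 3R. The bases shared amounted to 47.7% of those covered by replicate 1 and 45.0% of those covered by replicate 2 in the Antennapedia complex. The bithorax complex had 52.7% and 27.2%, and on the rest of 3R 74.2% and 63.6%.

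All 18 Hox regions of replicate 1 and all 25 of replicate 2 overlapped a region of the combined list, but most combined regions in the complexes had no replicate region. In the Antennapedia complex 6 of 63 met a region of both replicates (9.52%, 95% exact binomial interval 3.58% to 19.6%), 7 met replicate 1 alone and 8 replicate 2 alone, while 42 (66.7%) met no replicate region. In the bithorax complex 3 of 59 were overlapped by both (5.08%, 1.06% to 14.1%), 3 met replicate 1 alone and 8 replicate 2 alone, while 45 (76.3%) met no replicate region. On the rest of 3R, 23.7% were overlapped by both and 55.2% by neither. Support from at least 1 replicate stood at 33.3% in the Antennapedia complex, 23.7% in the bithorax complex and 44.8% on the rest of 3R. With 20 kb added on each side, 7 of 64 combined regions of the bithorax complex (10.9%) had support from both. Support from both was at or below that of the Antennapedia complex in 54 of the 1000 windows and at or below that of the bithorax complex in 10. Here too width moved with the result. Among combined regions narrower than 2000 bp, support from both was found for 2 of 55 in the Antennapedia complex (3.64%), 0 of 50 in the bithorax complex (up to 6% allowed) and 3.39% on the rest of 3R. Among those of at least 2000 bp it was 7 of 17 in both complexes together (41.2%) and 64.0% on the rest of 3R. The 7 include the region from 12471347 to 12480616, which lies mostly outside the window. No interval was computed for this share, and 17 regions are too few to separate the complexes from the arm here.

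**Figure D3:**
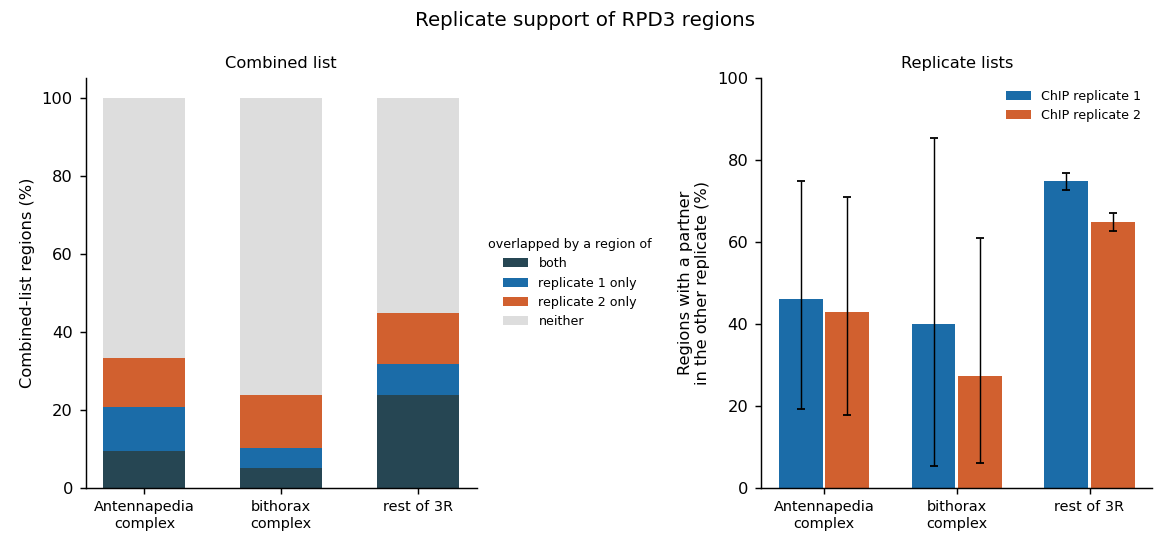
Left, share of combined-list regions (y axis, %) overlapped by a region of both replicates, of 1 replicate only or of neither, in each complex and on the rest of 3R. Right, share of regions of each replicate with a partner in the other replicate (y axis, %), with 95% exact binomial intervals. Support from both stands at 9.52% and 5.08% in the complexes and at 23.7% on the rest of 3R.

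Within the Antennapedia complex, the 6 regions that recurred lay on the low side of the window's midpoint, the side on which the gene order begins with lab, and 3 of them lay in the first of 10 equal parts. The 3 highest-ranked of the regions with support from both replicates all lay within the first 35 kb of the window. The first by mean rank was on 3R from 2502677 to 2504974, with scores of 0.77 in replicate 1 and 0.90 in replicate 2, at the 47.2 and 74.4 percentiles of 3R. The second, from 2489377 to 2491435, scored 0.81 and 0.71. The third, from 2481870 to 2486249, scored 0.80 and 0.68 and was the widest of the complex at 4380 bp. All 3 were middling by the standards of the arm, with mean percentiles of 60.8, 46.8 and 43.5.

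The other 3 supported regions of the Antennapedia complex were weaker. The region from 2520824 to 2522590 scored 0.73 in replicate 1 and 0.68 in replicate 2, and that from 2635082 to 2637173 scored 0.70 and 0.65. The last, from 2647372 to 2649182, had scores of 0.42 and 0.40, at the 0.772 and 0.898 percentiles of 3R. It was thus found in both replicates and was among the weakest regions of the arm in both. In the combined list it scored 0.32.

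The replicates parted on the high side of the window's midpoint in the Antennapedia complex, the side on which the gene order ends with Antp. None of the 6 supported regions lay above 2649182. From there to the end of the window replicate 1 had 3 regions, from 2666830 to 2668164 with its highest score of 0.89, from 2724864 to 2726195 with 0.83, and from 2824227 to 2825607 with 0.64. Replicate 2 had 6 other regions there. Their scores were 0.52 from 2718220 to 2719943, 0.46 from 2734700 to 2736067, 0.69 from 2740840 to 2742363, 0.56 from 2757576 to 2758909, 0.86 from 2761313 to 2762631 and 0.29 from 2825906 to 2827496. No region of one replicate met a region of the other in this stretch. On the low side of the window's midpoint there were 10 regions in replicate 1 and 8 in replicate 2, covering 18.2 kb and 14.7 kb, and on the high side 3 and 6, covering 4.05 kb and 8.86 kb. The other unpartnered regions lay from 2540104 to 2541590, 2591933 to 2593261, 2595479 to 2596817 and 2640690 to 2642519 in replicate 1, and from 2586569 to 2587911 and 2589456 to 2590892 in replicate 2.

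Across the bithorax complex the replicates met at 2 places. One was on 3R from 12588626 to 12590740, about 110 kb into the window, with scores of 0.63 in replicate 1 and 0.69 in replicate 2. The other was from 12757664 to 12761230, 279 kb into the window on the side where Abd-B stands in the gene order. It was the strongest of the complex in replicate 1, with a score of 0.82 and a width of 3492 bp. Replicate 2 listed the same stretch as 2 regions, with scores of 0.68 and 0.63. The third combined region counted as supported, from 12471347 to 12480616, reaches into the window by 617 bp, and its replicate regions lie outside the window. Counting regions by their midpoint leaves 2 of 58 (3.45%) supported by both.

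The unpartnered regions of the bithorax complex were spread along its length. In replicate 1 they lay from 12565506 to 12566974 (score 0.79), from 12765985 to 12767299 (0.59) and from 12804482 to 12805798 (0.72). Replicate 2 had 8, the strongest from 12519482 to 12521015 with a score of 0.82 and the next from 12724442 to 12726479 with 0.74. The other 6 scored between 0.55 and 0.71. They lay from 12502999 to 12504776, 12635237 to 12637036, 12652661 to 12653980, 12672186 to 12673810, 12707524 to 12708933 and 12793336 to 12794740. Replicate 2 thus had regions in 9 of 10 equal parts of the window, and replicate 1 in 4 of 10.

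**Figure D4:**
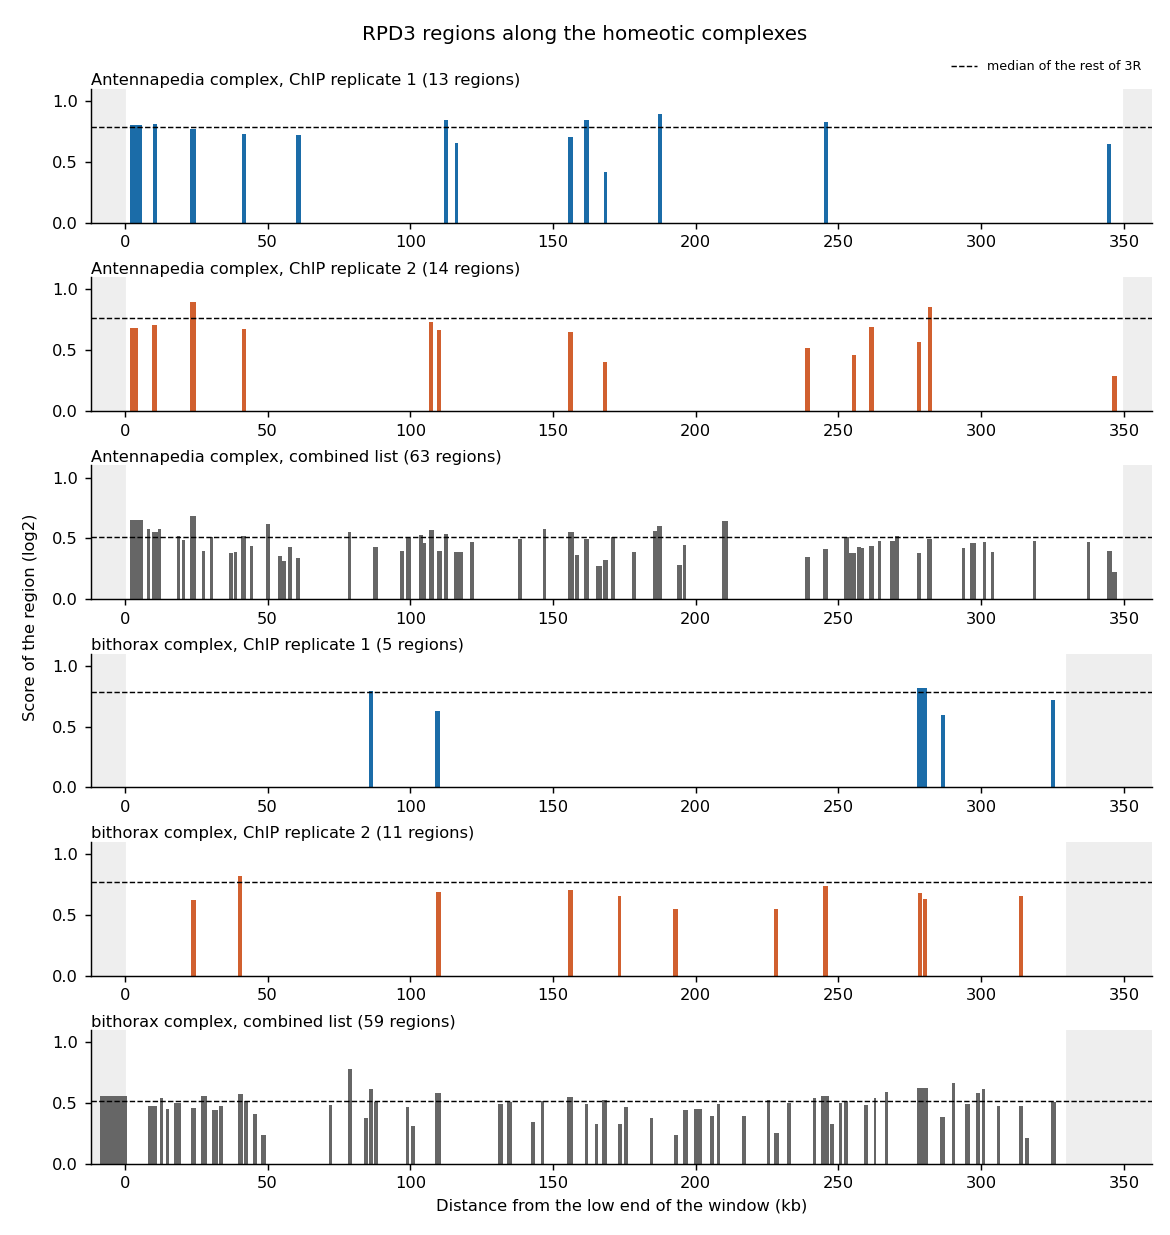
RPD3 regions along the Antennapedia complex (upper 3 rows) and the bithorax complex (lower 3 rows) in each list, drawn to scale by distance from the low end of the window (x axis, kb), with bar height the score of the region (y axis, log2). The dashed line is the median score of the rest of 3R, and grey marks positions outside the window. The recurring regions of the Antennapedia complex stand in the first 5 of 10 equal parts, and those of the bithorax complex near 110 kb and 279 kb.

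Long stretches carried no region. In replicate 1 the bithorax complex had 1 empty stretch of 167 kb, from 12590531 to 12757670, in place 4 by length among the 1684 empty stretches of 3R. In replicate 2 the same stretch held 5 whole regions, and the longest empty stretch of the complex was 67.8 kb, from 12521016 to 12588859, in place 45 of 1894. For the Antennapedia complex the longest was 98.0 kb in replicate 1, from 2726196 to 2824226, and 69.2 kb in replicate 2, from 2649043 to 2718219. Taking the replicates together, the longest stretch with no region of either was 61.6 kb in the Antennapedia complex, from 2762632 to 2824226, and 44.5 kb in the bithorax complex, from 12521016 to 12565505. These were in places 35 and 82 among 2272 such stretches of 3R, whose median was 4228.5 bp. The longest of many stretches lies above the median in nearly any window, so this comparison cannot tell whether the complexes were unusual. The longest empty stretch was not measured in other windows of 3R.

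The combined list filled most of these gaps. Its longest empty stretches in the Antennapedia complex were 26.8 kb from 2691362 to 2718205, 17.6 kb from 2799369 to 2816935 and 17.0 kb from 2541183 to 2558162. Those of the bithorax complex were 22.1 kb from 12529427 to 12551494, 20.0 kb from 12590741 to 12610718 and 10.2 kb from 12747460 to 12757663. The widest combined regions besides those named above were from 2595445 to 2598343 (2899 bp) and from 2733735 to 2736107 (2373 bp) in the Antennapedia complex and from 12488101 to 12491240 (3140 bp) in the bithorax complex. The sources used here do not say how the combined list was made, and it may draw on the same reads as the replicate lists.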

How the data were processed

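RPD3 ChIP and input libraries of Oregon-R embryos were grouped and numbered from the sample titles. Per the submitters' processing notes, the aligner was Bowtie 0.12.7. Per the file headers, positions belong to FlyBase release 5. Region caller, thresholds and origin of the combined list were not stated. Scores were deposited without a stated scale and were read as log2 of ChIP over input, which was inferred from the values and the labels. Scores are the authors' and were ranked within a list only. Values for the inputs were not analysed here, and 0 columns belonged to other samples.

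From the lists, regions were counted by overlap with the windows, partners by overlap of at least 1 bp, and covered shares by base. The rest of 3R means 3R regions that touch neither window. The 1000 windows per complex were placed uniformly on 3R with a fixed seed, and 50 and 42 of them touched a complex. Functions were tested on simulated lists with known answers. Intervals are exact (Clopper-Pearson). No p-values were computed.

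The members, the measures and the width limit of 2000 bp were chosen with earlier results of these data known. Regions named were the 5 supported by both replicates with the highest mean percentile, the 3 widest, the highest-scoring of each list, replicate regions with or without a partner and the longest empty stretches. No release 5 annotation or genome sequence was used here, so no region was assigned to a gene and no sequence is shown. The software was matplotlib 3.10.9, scipy 1.17.1, pandas 2.3.3 and numpy 2.4.6 under Python 3.11.15.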

Additional observations from a re-analysis of the deposited data

How the results depend on the processing

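Of 164 alternative values, 124 stayed within the SD between replicates or the binomial interval. Leaving out 1 of 2 replicates cannot move a mean beyond their SD, so such values were bound to count as unmoved. Counting by midpoint changed none of the replicate means, and binomial intervals from few regions are wide. The count of 124 is therefore not a measure of stability. The combined list has no spread of its own and was held to the SD of the replicates, which for region number was 0.0118 in the Antennapedia complex and 0.184 in the bithorax complex. The bithorax region number in that list (1) therefore counted as unmoved at 1.11 with neighbours merged and 1.16 with windows from 5 arms. Replicate means of region number and covered share stayed below the median of the windows in every alternative run. Relative to the window median, the region number of the Antennapedia complex (0.658) was 0.697 with 20 kb added on each side, 0.567 with 20 kb removed, 0.424 with scores at or above each list's median only, 0.675 with neighbours within 200 bp merged and 0.643 with windows from 5 arms; its covered share (0.498) was 0.539, 0.401 and 0.228 under the first 3 of these. For the bithorax complex the region number (0.393) was 0.592 with 20 kb added and 0.118 with the higher scores only, and the covered share (0.295) was 0.51 and 0.109. In the combined list the region number of the Antennapedia complex (1.02) was 1.03 by midpoint and with end-to-end windows, 1 with 20 kb added, 1.05 with merging and 1.15 with windows from 5 arms, and its covered share (0.777) was 0.733 with end-to-end windows and 0.815 over 5 arms. Keeping the higher scores put the combined lists below the windows in number, at 0.583 and 0.696, and in covered share, at 0.397 and 0.418, against 1.02 and 1 in number with all scores. The higher scores also moved the width difference to -1036 bp and -611 bp (replicate mean and combined list) in the Antennapedia complex and -85 bp and -878 bp in the bithorax complex, where 20 kb added gave -219.75 bp. With the higher scores, the replicate means of width rest on only 5 and 2 regions in the Antennapedia complex. In the bithorax complex they rest on 1 region in each replicate. Where both a region and its partner had to have a higher score, 0% had a partner or support from both: 0 of 5, 0 of 2 and 0 of 14 in the Antennapedia complex and 0 of 1, 0 of 1 and 0 of 16 in the bithorax complex (replicate 1, replicate 2, combined list), against 69.7%, 59.9% and 24.7% on the rest of 3R. The counts of 14 and 16 allow up to 21.4% and 18.8%, that of 5 up to 60%, and the others are too small to limit a share. With partners of any score, chosen after seeing the data, it was 1 of 5, 1 of 2 and 4 of 14 (28.6%) in the Antennapedia complex and 1 of 1 (100%), 0 of 1 (0%) and 3 of 16 (18.8%) in the bithorax complex, against 84.2%, 81.6% and 46.4% on the rest of 3R. Under 2000 bp, a limit set after seeing the data, replicate-mean score differences were 0.003 (Antennapedia) and -0.025 (bithorax). Bithorax support from both was 0% (0 of 50, up to 6% allowed). Leaving out 1 replicate gave 0.65 to 0.667 (region number) and 0.476 to 0.52 (covered share) for the Antennapedia complex and 0.263 to 0.524 and 0.222 to 0.369 for the bithorax complex. No paired analysis was possible because the results come from no test and region lists were analysed for the ChIP group alone. Differences from the rest of 3R were taken within each replicate. Depth was unknown, and its part in the number and width of regions was not tested.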

Other observations

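The stretches next to the complexes had more regions in both replicates. In replicate 1 the Antennapedia complex had 13 regions, and the flanks of equal length had 20 on the low side and 23 on the high side. In replicate 2 the complex had 14, and the flanks 17 and 26. The highest score was 0.89 in the complex in replicate 1, against 1.27 and 1.18 in the flanks, and 0.90 in the complex in replicate 2, against 1.46 and 1.16. Median scores were closer in replicate 1, at 0.773 in the complex and 0.792 and 0.761 in the flanks. In replicate 2 they were 0.671, 0.794 and 0.772. The combined list had 63 regions in the complex, against 54 on the low side and 66 on the high side. Support from both replicates was 9.52% of combined regions in the complex, against 24.1% and 24.2% in the flanks.

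In number of regions and covered share in the replicates, the bithorax complex stood out more from its flank on the low side. It had 5 regions in replicate 1, against 25 on the low side and 19 on the high side, and 11 in replicate 2, against 29 and 16. Covered shares in replicate 1 were 2.83% in the complex, 16.6% on the low side and 11.5% on the high side. In replicate 2 they were 5.48%, 19.9% and 11.8%. In the combined list the order was not the same. The complex had 59 regions, more than the 39 of the high flank. Its covered share was 27.2%, against 24.4% in the high flank and 45.8% in the low flank. Only 5.08% of its regions had support from both replicates, against 30.8% in the high flank and 26.1% in the low flank. The combined region of 9270 bp that ends 617 bp inside the window is the widest of the low flank in that list. Its replicate regions scored 0.98 in replicate 1 and 0.76 in replicate 2. Median scores in replicate 1 were 0.722 in the complex, 0.748 on the low side and 0.717 on the high side. In replicate 2 they were 0.657, 0.727 and 0.806. The upper 25% of 3R scores held 5 of 25 low-side and 2 of 19 high-side regions in replicate 1. In replicate 2 it held 3 of 29 and 3 of 16. It held 0 regions of the complex in both, against 25.3% and 25.4% of regions on the rest of 3R.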
